A study of Mus musculus with 12 samples.

Results

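Cytosolic ribosomal protein genes were followed across 4 groups of cultured mouse cells of strain C57BL/6. Members were the rows whose symbol starts with Rpl or Rps followed by a digit, plus Rpsa, Rplp0, Rplp1 and Rplp2, without symbols that contain -ps and without the Rps6k kinases. The rule gave 90 of 53932 gene rows, 52 with large-subunit and 38 with small-subunit names. RNA had been measured in 3 libraries per group as FPKM, a fragment density per transcript length that is relative to the rest of the library. The Glioblastoma libraries carry the labels cerebella and E18.5, and how that culture was made is not stated in the sources used here. The MIM-Astrocytes were astrocytes moved to MIM, a serum-free medium with FGF2 at 20 ng/mL and up to 6 metabolites, the amino acids cysteine, glycine, methionine and threonine together with S-adenosylmethionine and putrescine. These libraries carry the label E14.5 (embryonic day 14.5), and the cells were collected by day 5 in MIM at the latest. The NSC were neural stem cells of cortex at E14.5, grown as neurospheres with EGF and FGF2 at 20 ng/mL each. The Astrocytes were cortical cells in DMEM-F12 with 10% serum, labelled E14.5, and whether they came from sorted postnatal cortex or from neurospheres is not stated. Separate cultures or animals are not named, so the spread behind each p-value is that among libraries and may be technical.

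The cytosolic ribosome is built from a small subunit that reads the mRNA and a large subunit that joins amino acids, and each of its proteins is normally present once per particle, apart from the stalk proteins P1 and P2. The mRNAs of its proteins are among the most abundant of a growing cell. Most of them start with a C followed by a run of pyrimidines, the terminal oligopyrimidine or TOP start, through which the kinase mTOR, acting by way of Larp1, sets how much they are translated. Neural stem cells and tumour cells are known for active ribosome production. Many mouse ribosomal protein genes have processed copies without introns elsewhere in the genome, and short reads from parent and copy can be hard to separate.

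The start windows show this element in some members and its absence from others. It lay exactly at the annotated start in only 14 of 66 members, so the windows printed here, most of which carry it, do not reflect that proportion. Each line gives 15 bases before and 15 bases from the RefSeq transcription start in GRCm38.p6, on the strand of the gene, with capitals for an unbroken pyrimidine run that begins with C at the start itself.
Rpl15: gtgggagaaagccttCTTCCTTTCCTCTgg
Rpl35: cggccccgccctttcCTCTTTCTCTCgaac
Rps6: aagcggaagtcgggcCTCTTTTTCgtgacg
Rps18: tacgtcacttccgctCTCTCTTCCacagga
Rps27: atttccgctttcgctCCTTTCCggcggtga
Rps27rt: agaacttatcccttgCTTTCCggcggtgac
Rps27l: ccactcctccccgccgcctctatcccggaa
Rps19: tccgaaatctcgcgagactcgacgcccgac
The windows lie at chr14:18270972-18271001 for Rpl15, chr2:39005117-39005146 for Rpl35, chr4:86857353-86857382 for Rps6, chr17:33955651-33955680 for Rps18, chr3:90213634-90213663 for Rps27, chr9:114982725-114982754 for Rps27rt, chr9:66946071-66946100 for Rps27l and chr7:24884577-24884606 for Rps19. Rpl15 carried a run of 13 bases, Rpl35 of 11, Rps6 and Rps18 of 9 each, and Rps27 of 7. The copy Rps27rt carried a run of 6, while Rps27l and Rps19 had none at the annotated base. A C followed by at least 4 bases that are each C or T, read on the transcribed strand and exactly at the start, was present in 14 of 66 members in the RefSeq table, or 21.2%. The same was true of 799 of 26959 other genes, or 2.96%, and of 0 of 69 mitochondrial ribosomal protein genes. Allowing the element to begin within 10 bases of the annotated start raised these shares to 60.6%, 34.3% and 44.9%. A match is a description of letters, and an annotated start can lie some bases from the one a cell uses.

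Library facts that bear on these genes were as follows. The files give no read counts, so depth is unknown, and the half-width of the deposited intervals had a median of 4.65% of the value over the tested members. The coefficient of variation between the 3 libraries of a group had a median over members of 9.10% in Glioblastoma, 11.1% in MIM-Astrocytes, 11.2% in NSC and 14.3% in Astrocytes. Cycling markers (Mki67, Top2a and Ccnb1) summed to 233 to 236 FPKM in Glioblastoma, 243 to 256 in MIM-Astrocytes, 81.0 to 92.3 in NSC and 1.26 to 1.47 in Astrocytes. Astrocyte markers, 5 genes, summed to 394 to 417 FPKM in Glioblastoma, 848 to 1111 in MIM-Astrocytes, 617 to 708 in NSC and 1049 to 1211 in Astrocytes. Meningeal fibroblast markers (Ogn, Fmod and Col1a1) summed to 0.250 to 0.470 FPKM in Glioblastoma, 3.81 to 3.98 in MIM-Astrocytes, 0.334 to 0.451 in NSC and 196 to 228 in Astrocytes, with Fmod below 0.05 FPKM in Glioblastoma and NSC. Neural stem markers, 5 genes, summed to 279 to 299.6 FPKM in Glioblastoma, 209 to 222 in MIM-Astrocytes, 268 to 324 in NSC and 117 to 142 in Astrocytes. Oligodendrocyte lineage markers, 3 genes, summed to 112 to 118 FPKM in Glioblastoma, 91.0 to 102 in MIM-Astrocytes, 122 to 139 in NSC and 4.04 to 4.23 in Astrocytes. Neuron markers, 3 genes, summed to 179 to 191 FPKM in Glioblastoma, 168 to 189 in MIM-Astrocytes, 271 to 299 in NSC and 98.8 to 106 in Astrocytes, with Rbfox3 below 0.05 FPKM in Astrocytes. The cycling, neural stem, oligodendrocyte lineage and neuron lists, like the members, were lowest in Astrocytes. By contrast, the meningeal fibroblast list was highest in Astrocytes, and the astrocyte list was lowest in Glioblastoma. Sums of 3 microglial and 3 endothelial markers each stayed below 1 FPKM in every library. The part of these cell types and of cycling in the results was not tested, and in bulk RNA fewer cells of a type and less RNA per cell cannot be told apart.

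Ribosomal protein mRNA was most abundant in Glioblastoma, next in NSC, then in MIM-Astrocytes, and least in Astrocytes. Summed over all 90 members, the level was 52606, 56676 and 60921 FPKM in Glioblastoma, 22121, 25487 and 22969.9 FPKM in MIM-Astrocytes, 40048, 39524 and 32543 FPKM in NSC, and 11983, 13424 and 10369 FPKM in Astrocytes. No library of one group fell within the range of another. As a share of all protein-coding FPKM, the members made up 14.1% ± 0.583 in Glioblastoma, 6.53% ± 0.185 in MIM-Astrocytes, 11.5% ± 0.510 in NSC and 3.37% ± 0.160 in Astrocytes (SD, n = 3 each). MIM-Astrocytes had 1.97 times the summed FPKM of Astrocytes and 0.630 times that of NSC. Glioblastoma had 1.52 times the summed FPKM of NSC and 1.22 times its share, and the protein-coding total was at least 390771 FPKM in the Glioblastoma libraries and at most 336762 FPKM in the NSC libraries. Among the 100 highest protein-coding or member genes by group mean, 47 were members in Glioblastoma, 22 in MIM-Astrocytes, 42 in NSC and 8 in Astrocytes. Rpl13a led the members in Glioblastoma, with a mean of 2194 FPKM, and Rpl41, which encodes a very small basic protein of the large subunit, led in each of the other groups.

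**Figure D1:**
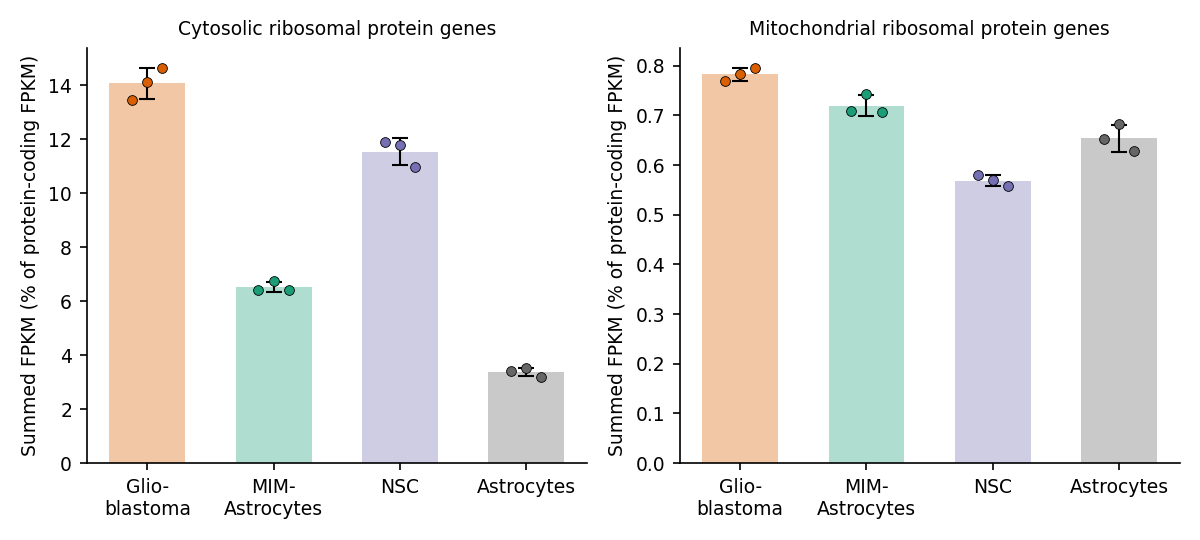
Summed FPKM of the 90 cytosolic (left) and 77 mitochondrial (right) ribosomal protein genes as a percentage of the protein-coding FPKM of each library. Bars are group means, error bars SD, points the 3 libraries of a group. The cytosolic share is 14.1% in Glioblastoma, 6.53% in MIM-Astrocytes, 11.5% in NSC and 3.37% in Astrocytes, whereas the mitochondrial share is lowest in NSC, at 0.569%.

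Of the 90 members, 86 reached 1 FPKM in at least 3 libraries and were tested with limma on log2(FPKM + 1), with adjusted p-values over 16982 genes per comparison and calls at an adjusted p under 0.05. Differences are on that log2 scale, which understates the change of low genes. The other members were Rpl10l and Rpl39l, listed at 0 in all libraries, Rpl3l, at or below 0.219 FPKM, and Rps4l, at or below 1.02 FPKM. Rpl10l and Rpl39l are known from testis and Rpl3l from muscle. Group means of 72 of the 86 tested members followed the order Glioblastoma, NSC, MIM-Astrocytes, Astrocytes, or 83.7%, against 14.6% of all tested genes. For 49 members, or 57.0%, the libraries themselves kept that order with no overlap between neighbouring groups, against 4.56% of all tested genes.

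Astrocytes moved to MIM had more ribosomal protein mRNA than those kept in serum. In MIM-Astrocytes against Astrocytes, 78 of 86 members were higher and 0 lower, where 34.8% of all tested genes were called higher and 26.6% lower. At an unadjusted p under 0.05, limma gave 79 members higher and 0 lower. The share of all tested genes at that threshold was not computed, here or in the comparisons below. The median difference over members was 0.97, against 0.09 over all tested genes. Rpsa, a small-subunit protein also known as the laminin receptor (chr9:120127689-120132369, GRCm38), stood at 555, 732 and 593 FPKM in MIM-Astrocytes, against 169, 192 and 154 FPKM in Astrocytes. Every MIM library was above every astrocyte library, the means differed 3.65-fold, and the log2 difference was 1.86 ± 0.13 (SE, limma adjusted p = 6.18e-07). Rps28 (1.67 ± 0.15) and Rps16 (1.67 ± 0.33) came next among the called members, and Rplp0, which anchors the stalk of the large subunit, differed by 1.05 ± 0.12. Rps23, a protein of the decoding centre, was at 94.0, 50.8 and 139 FPKM in MIM-Astrocytes and at 77.2, 116 and 85.7 FPKM in Astrocytes. The groups overlapped and the difference was -0.07 ± 0.32 (limma adjusted p = 0.869), but with the FPKM of the rows named as its pseudogenes added it was 0.91 and called higher. Rpl5, which with Rpl11 and 5S rRNA binds Mdm2, differed by 0.28 ± 0.20 and was not called. With limma's library weights it was called higher, at 0.39 (limma adjusted p = 0.0137). Rpl17 (0.23) and Rpl21 (0.23) were not called as single rows either. However, Rpl17 was called at 0.28 with limma's library weights (limma adjusted p = 0.00757), and Rpl21 in a fit of the 6 libraries compared (limma adjusted p = 0.0375). With their pseudogene rows added both were called higher, Rpl17 at 0.73 (limma adjusted p = 0.00133) and Rpl21 at 1.18 (limma adjusted p = 5.02e-06).

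Most members stayed below the level of neural stem cells. In MIM-Astrocytes against NSC, 67 of 86 members were lower and 3 higher, where 24.9% of all tested genes were lower and 31.0% higher, and the median difference was -0.77, against 0.02 over all tested genes. Rplp0 (chr5:115559467-115563727, GRCm38) stood at 358, 471 and 429 FPKM in MIM-Astrocytes, against 1034, 982 and 875 FPKM in NSC. The highest MIM library was below the lowest NSC library, with a log2 difference of -1.21 ± 0.12 (limma adjusted p = 1.86e-05). Among the members furthest below NSC were Rps23 (-1.83 ± 0.32), Rps12 (-1.66 ± 0.20) and Rpl17 (-1.56 ± 0.13). With pseudogene rows added these were at -1.16, -0.96 and -1.21 and still called lower. The 3 higher members were Rps27l, a copy of Rps27 known as a p53 target (0.80 ± 0.15), Rps2 (0.58 ± 0.15) and Rps19bp1, whose product binds Rps19 (0.55 ± 0.09). With its named pseudogene rows added, the difference of Rps2 was -0.25 (limma adjusted p = 0.102) and not called. Rpl41 averaged 1788 ± 272 FPKM in MIM-Astrocytes and 1789 ± 273 FPKM in NSC (SD, n = 3 each), a log2 difference of 0.00 ± 0.17 that was not called. Cycling markers were higher in every MIM library than in any NSC library.

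Neural stem cells exceeded astrocytes for nearly every member. In NSC against Astrocytes, 82 of 86 were higher and 0 lower, where 37.7% of all tested genes were higher and 33.4% lower. At an unadjusted p under 0.05, limma also gave 82 higher and 0 lower, and the median was 1.73, against 0.07 over all tested genes. Rps19, a small-subunit protein whose human gene is mutated in Diamond-Blackfan anaemia, was at 442, 403 and 291 FPKM in NSC, against 63.9, 72.7 and 55.6 FPKM in Astrocytes. The groups did not overlap, and the log2 difference was 2.53 ± 0.15. Rpsa (2.40 ± 0.13) and Rps12 (2.34 ± 0.20) were also among the higher ones. The 4 members not called were Rps12l1, Rps19bp1, Rps27l and Rps27rt, of which Rps27l (0.44) and Rps19bp1 (0.38) were called higher with libraries brought to a common total of other protein-coding genes. Rpl7l1, related to Rpl7, was called at 0.28 ± 0.10, but not without NSC replicate 1 or 2 or without Astrocytes replicate 1 or 3, at limma adjusted p = 0.0898 to 0.106, and its difference was -0.10 with libraries brought to a common total.

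Glioblastoma libraries held the highest summed levels. In Glioblastoma against Astrocytes, 85 of 86 members were higher and 0 lower, where 47.0% of all tested genes were higher and 31.3% lower, with a median of 2.23 against 0.23 over all tested genes. Rps12l1 was the member not called, and at an unadjusted p under 0.05 limma likewise gave 85 higher and 0 lower. The smallest called differences included Rpl11 (0.76 ± 0.15, but 0.15 and not called with libraries brought to a common total), Rps14, whose loss in human 5q deletion impairs red cell production (0.88 ± 0.13, but -0.03 and not called under quantile normalization), and Rps27l (0.91 ± 0.15). In Glioblastoma against MIM-Astrocytes, 80 members were higher and 0 lower, where 41.5% of all tested genes were higher and 28.3% lower, with a median of 1.32 against 0.13. Limma gave 80 and 0 at an unadjusted p under 0.05 as well. Rps27l averaged 189.5 ± 19.7 FPKM in Glioblastoma and 196 ± 17.3 FPKM in MIM-Astrocytes (SD, n = 3 each), and the difference of -0.05 ± 0.15 was not called. It was called lower in Glioblastoma under 3 of the 5 other scalings, at -0.33 with a common total, -0.27 with a total without mitochondrial genes and small RNAs and -0.36 with quantile normalization. Rplp1, a stalk protein (0.19 ± 0.15, and -0.32 under quantile normalization), and Rpl11 (0.21 ± 0.15) were not called either.

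Glioblastoma and NSC lay closer together, and the calls were more mixed. In Glioblastoma against NSC, 57 of 86 members were higher and 2 lower, where 44.8% of all tested genes were higher and 25.1% lower, with a median of 0.56 against 0.19. Under 5 other scalings of the libraries, 42 to 46 members were higher and 4 to 9 lower. Under those scalings, 5558 to 6112 of all 16982 tested genes were higher and 5036 to 6080 lower. On the deposited scale the all-gene counts were 7611 and 4265. Rps20 (-0.50 to -0.41) and Rps9 (-0.40 to -0.27), both of the small subunit, were called lower under all 5 of these scalings and not on the deposited scale. Rps18, a small-subunit protein often used as a reference gene, was at 1362, 1514 and 1647 FPKM in Glioblastoma, against 478, 435 and 332 FPKM in NSC, with no overlap and a log2 difference of 1.87 ± 0.19 (limma adjusted p = 9.70e-06). Rps16 (2.09 ± 0.33) was also higher. Rplp0 was at 1212, 1204 and 1230.3 FPKM in Glioblastoma and at 1034, 982 and 875 FPKM in NSC, a difference of 0.34 ± 0.12 that was called here but not under any of the 5 other scalings (0.03 to 0.12). The lower members were Rpl11, at 77.1, 82.6 and 74.6 FPKM in Glioblastoma and 87.7, 129 and 92.9 FPKM in NSC (-0.38 ± 0.15), and Rps14, at 706, 777 and 843 FPKM in Glioblastoma and 1042, 1019 and 897 FPKM in NSC (-0.35 ± 0.13). The groups did not overlap for either gene, yet 0 members were called lower without Glioblastoma replicate 1 or 2, NSC replicate 2, Astrocytes replicate 1 or MIM-Astrocytes replicate 3. Without Glioblastoma replicate 3, NSC replicate 1 or MIM-Astrocytes replicate 1, 1 member was.

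**Figure D2:**
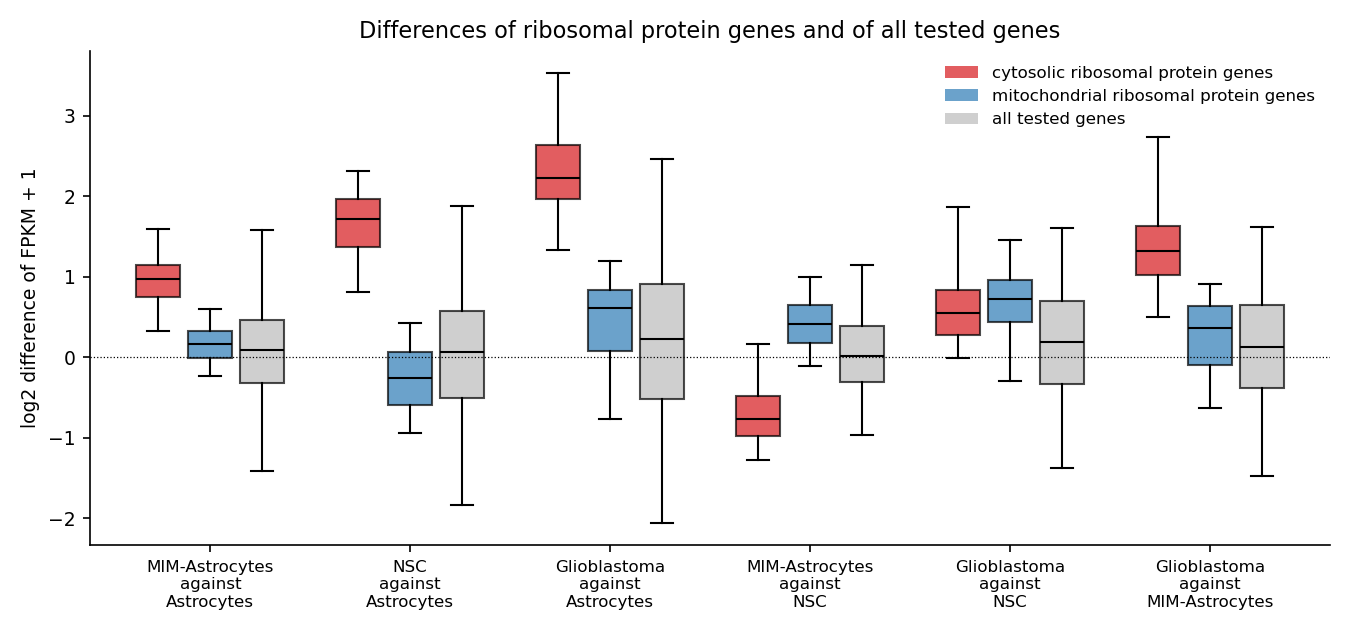
Box plots of log2 differences of FPKM + 1, first-named group minus second, for 86 cytosolic and 76 mitochondrial ribosomal protein genes and for 16982 tested genes. Boxes show quartiles and medians, whiskers the 5th and 95th percentiles. The cytosolic box lies above 0 in all comparisons except MIM-Astrocytes against NSC, where its median is -0.77 while the mitochondrial median is 0.42.

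The 5 other scalings moved the median of all tested genes by -0.49 to 0.22 over the 6 comparisons. Relative to that median, the member median lay 0.73 to 0.90 higher in MIM-Astrocytes against Astrocytes, 1.31 to 1.72 higher in NSC against Astrocytes and 1.65 to 2.00 higher in Glioblastoma against Astrocytes, over the deposited scale and the 5 others. It lay 0.88 to 1.19 higher in Glioblastoma against MIM-Astrocytes and 0.28 to 0.37 higher in Glioblastoma against NSC. For MIM-Astrocytes against NSC it was between -0.85 and -0.58. The member median thus kept its side of the all-gene median in each comparison on each scale. Apart from quantile normalization, however, these scalings divide each library by a single factor. Such a factor moves members and other genes nearly alike, so it could hardly change this side.

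Members ranked much alike within the groups. Across the 86 tested members, Spearman's rho of group means was 0.971 for MIM-Astrocytes with Astrocytes, 0.955 for MIM-Astrocytes with NSC, 0.954 for NSC with Astrocytes, and 0.881 to 0.913 for the pairs with Glioblastoma, as a description over genes, which are not independent. MIM-Astrocytes against Astrocytes and Glioblastoma against NSC share no library and can be set side by side. As a single row, Rpl21 differed by 0.23 in the MIM comparison and by 5.47 in the Glioblastoma one, and with its pseudogene rows added by 1.18 and 1.95. Rps18 differed by 0.91 and 1.87. For Rplp1 the MIM comparison gave the larger value, with 1.57 ± 0.15 in MIM-Astrocytes against Astrocytes and 0.08 ± 0.15 in Glioblastoma against NSC. Rps19 was called in both, at 1.47 and 2.06.

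**Figure D3:**
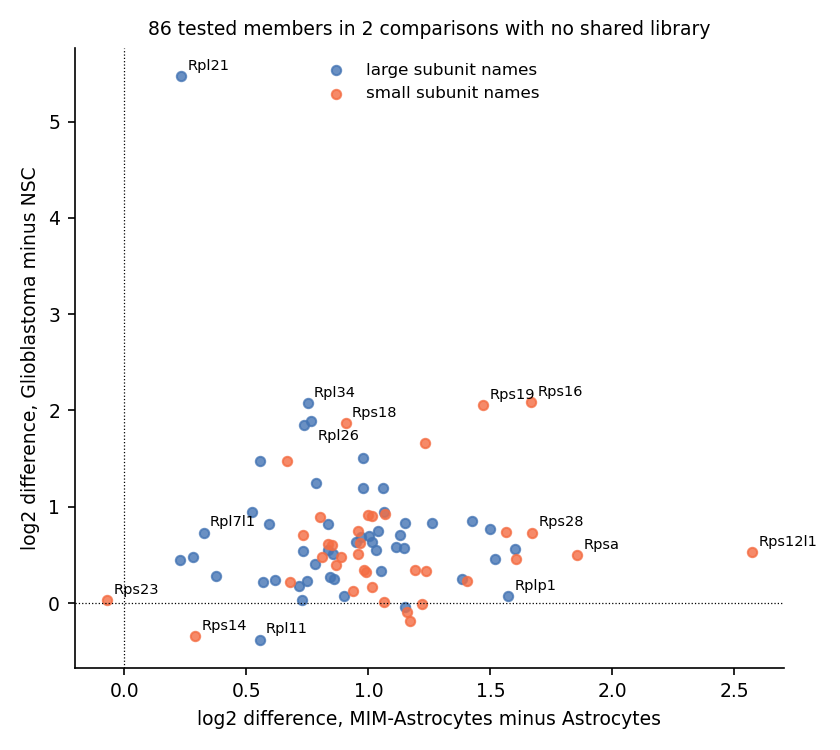
Each point is 1 of 86 tested members, with the log2 difference of MIM-Astrocytes minus Astrocytes on the horizontal axis and of Glioblastoma minus NSC on the vertical axis. Rpl21 stands at 5.47 on the vertical axis and 0.23 on the horizontal one, and with its pseudogene rows added, which are not plotted, the values are 1.95 and 1.18. Rpl11 and Rps14 are the members called below 0 on the vertical axis.

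Rpl21, a large-subunit protein (chr5:146832890-146837032, GRCm38), stood far apart in Glioblastoma. It was at 339.7, 413 and 386 FPKM in Glioblastoma, against 4.69, 4.60 and 4.26 FPKM in MIM-Astrocytes, 6.34, 9.95 and 6.75 FPKM in NSC and 3.93, 3.80 and 3.38 FPKM in Astrocytes. Glioblastoma was 49.4-fold above NSC (5.47 ± 0.14, limma adjusted p = 2.79e-10). Of the windows of 50 bases in its longest protein-coding GENCODE transcript, of 1856 bases, 26.2% also occur in transcripts of 82 other genes. The 10 rows named as Rpl21 pseudogenes summed to 258, 245 and 298 FPKM in Glioblastoma, 135, 114 and 117 FPKM in MIM-Astrocytes, 175, 151 and 151 FPKM in NSC and 54.9, 55.8 and 43.8 FPKM in Astrocytes. Outside Glioblastoma, the pseudogene rows thus held many times the FPKM of the gene itself, and with them added the difference of Glioblastoma from NSC was 1.95 (limma adjusted p = 8.74e-08). Here and below, pseudogene rows are only those whose symbol contains -ps. Genes under other symbols that share its windows, such as Gm10240 and Gm13370, were not added.

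Rps19 (chr7:24884371-24889806, GRCm38) was at 1603, 1477 and 1592 FPKM in Glioblastoma, 194, 173 and 169 FPKM in MIM-Astrocytes, 442, 403 and 291 FPKM in NSC and 63.9, 72.7 and 55.6 FPKM in Astrocytes, and no group overlapped another. Its 14 pseudogene rows summed to 339, 453 and 509 FPKM in Glioblastoma and 721, 734 and 639 FPKM in NSC, lower in Glioblastoma where the gene itself was higher. With them added, the difference of Glioblastoma from NSC was 0.89, in place of 2.06. Rpl34, a large-subunit protein, was at 276, 321 and 352 FPKM in Glioblastoma and 81.0, 75.6 and 66.3 FPKM in NSC (2.07 ± 0.15). Its 2 pseudogene rows held more than the gene, at 558, 602 and 714 FPKM in Glioblastoma and 737, 646 and 561 FPKM in NSC, and with them added the difference was 0.38 (limma adjusted p = 0.0264). The 8 Rps2 pseudogene rows summed to 15.7 to 17.1 FPKM in Glioblastoma, against 194 to 250.4 FPKM in NSC. Adding such rows moved the difference of Glioblastoma from NSC by over 0.5 for 7 members, namely Rpl17, Rpl21, Rpl27, Rpl3, Rpl34, Rps19 and Rps2, while the member median was 0.56 with and without them. How reads that fit several loci were placed is not given in the sources used here, and its part in these values was not tested. Pseudogene rows with -ps in the symbol in all held 29.4% of the members' sum in Glioblastoma, 30.7% in MIM-Astrocytes, 33.2% in NSC and 28.7% in Astrocytes. Copies under other symbols are not in these shares.

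In 12 members, 9 of them tested, under 10% of the windows of 50 bases in the longest protein-coding transcript were shared with transcripts of other genes. All 9 of these were higher in MIM-Astrocytes and in Glioblastoma than in Astrocytes (34.8% and 47.0% of all tested genes), with medians of 1.06 and 2.21. In MIM-Astrocytes against NSC, 7 were lower and 1 higher (24.9% and 31.0% of all tested genes), with a median of -0.77. In Glioblastoma against NSC, 6 were higher and 0 lower (44.8% and 25.1% of all tested genes), with a median of 0.40. The set includes Rpl34, whose pseudogene rows held more FPKM than the gene in Glioblastoma and NSC. It also includes Rps15a, Rps20 and Rpl7l1, with long transcripts of 5179, 3706 and 2606 bases. Their shared windows numbered 322, 272 and 231, and occurred in transcripts of 39, 31 and 252 other genes. A low share thus does not mean few shared windows. In the 32 members with at least 50% shared, the medians in the same order were 0.92, 2.26, -0.78 and 0.55.

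**Figure D4:**
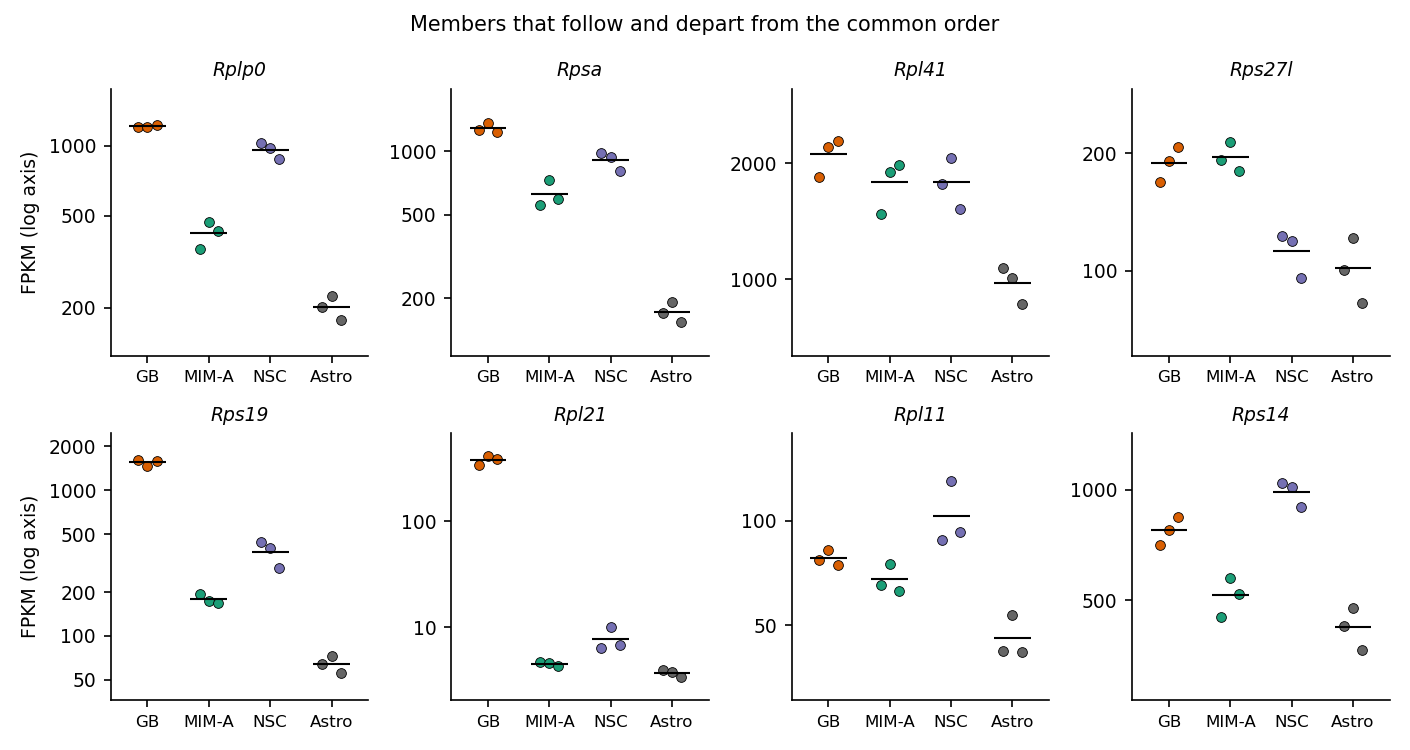
FPKM on log axes in each library of Glioblastoma (GB), MIM-Astrocytes (MIM-A), NSC and Astrocytes (Astro), with lines at group means. Rplp0 and Rpsa keep the order of the summed level, Rps19 and Rpl21 stand out in Glioblastoma, Rps27l is higher in MIM-Astrocytes than in NSC, and Rpl11 and Rps14 have their highest group mean in NSC.

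Some copies scattered between libraries of the same group. Rps12l1, annotated as a processed pseudogene and with all its windows shared, was at 85.2, 0.994 and 1.72 FPKM in Glioblastoma, 0.991, 0.942 and 103 FPKM in MIM-Astrocytes, 0.960, 5.29 and 11.5 FPKM in NSC and 0.836, 0.000885 and 0.0420 FPKM in Astrocytes. A single library was far above its replicates in Glioblastoma and in MIM-Astrocytes, and none of its 6 differences was called. In NSC against Astrocytes it was called in a fit of those 6 libraries (limma adjusted p = 0.0363), and in MIM-Astrocytes against Astrocytes with limma's library weights (limma adjusted p = 0.0222). Rps27rt, with 91.1% of windows shared, was at 679, 158 and 884 FPKM in Glioblastoma, 295, 295 and 67.5 FPKM in MIM-Astrocytes, 165, 696 and 123 FPKM in NSC and 148, 30.9 and 156 FPKM in Astrocytes, and only Glioblastoma against Astrocytes showed no overlap among the 6 comparisons. Rps3a2 was at 15.3, 88.7 and 31.8 FPKM in MIM-Astrocytes and 6.93, 32.8 and 5.92 FPKM in Astrocytes. Its parent Rps3a1 was at 207, 196 and 186 FPKM in MIM-Astrocytes and 105, 122 and 92.3 FPKM in Astrocytes, with little spread inside each group. More than 2-fold between replicates was seen for 2 members in Glioblastoma, 4 in MIM-Astrocytes, 3 in NSC and 3 in Astrocytes, and each of these sets holds Rps12l1 and Rps27rt. Rps23 in MIM-Astrocytes and Rps16 in NSC, at 135, 169.8 and 57.0 FPKM, were the others besides Rps3a2.

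**Figure D5:**
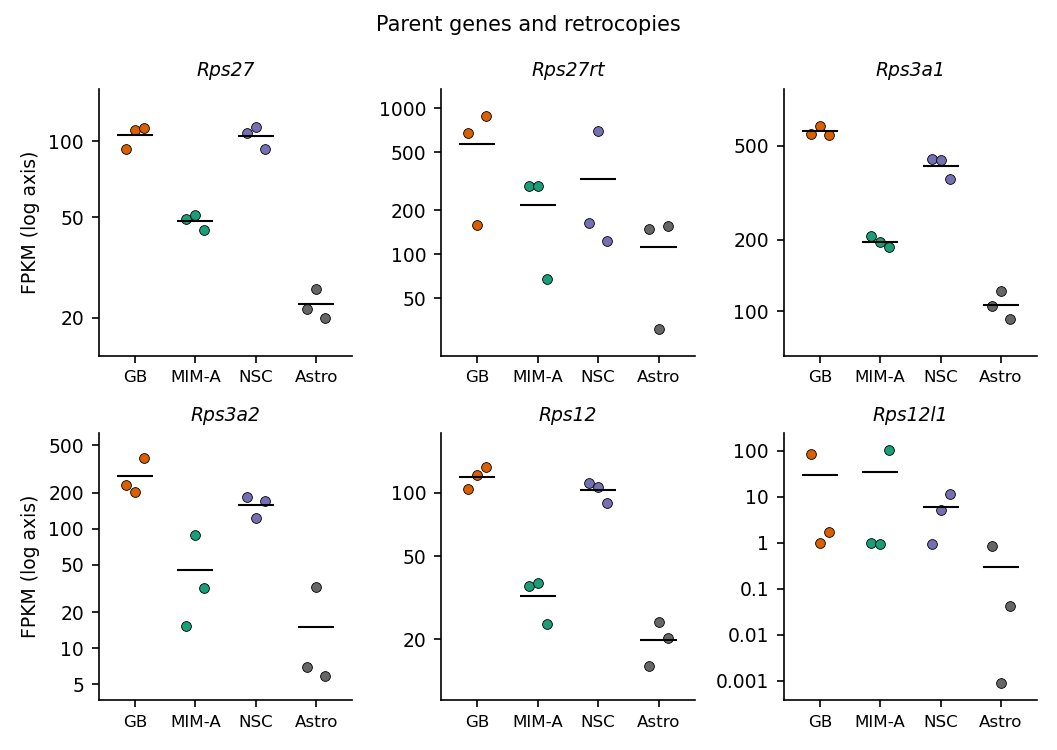
FPKM on log axes of Rps27, Rps3a1 and Rps12 beside the copies Rps27rt, Rps3a2 and Rps12l1, in the libraries of Glioblastoma (GB), MIM-Astrocytes (MIM-A), NSC and Astrocytes (Astro), with lines at group means. The parents vary less within a group than the copies, and Rps12l1 reaches 103 FPKM in 1 MIM-Astrocytes library and stays below 1 in the other two.

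Protein-coding copies stood in different proportions to their parents. The FPKM of Rps27l was 1.80 ± 0.0605 times that of Rps27 in Glioblastoma, 4.06 ± 0.159 times in MIM-Astrocytes, 1.07 ± 0.0584 times in NSC and 4.46 ± 0.301 times in Astrocytes (SD, n = 3 each). Rps27 averaged 106 ± 10.7 FPKM in Glioblastoma, 48.3 ± 3.26 FPKM in MIM-Astrocytes, 105 ± 10.7 FPKM in NSC and 22.6 ± 3.12 FPKM in Astrocytes. Of the transcript windows of Rps27, 63.1% are shared with other genes, among them Rps27rt. In every library Rps27rt stood above the mean of Rps27 in that group. How reads were divided between Rps27 and Rps27rt was not tested, so the Rps27l ratios describe single rows only. Rpl22l1, a paralog of Rpl22, was at 0.559 ± 0.0217 times Rpl22 in Glioblastoma, 0.235 ± 0.0203 times in MIM-Astrocytes, 0.194 ± 0.00631 times in NSC and 0.352 ± 0.0113 times in Astrocytes. Rpl22l1 itself was at 150.3, 179 and 198 FPKM in Glioblastoma, against 66.4, 64.4 and 56.6 FPKM in NSC (1.47 ± 0.14), while Rpl22 was at 281, 314 and 346 FPKM in Glioblastoma and 344, 340.3 and 281 FPKM in NSC, and those ranges overlapped. Rpl22 was not called on the deposited scale, but it was called lower in Glioblastoma under 4 of the 5 other scalings, at -0.34 to -0.28. Rpl36al was at 1.05 ± 0.0187 times Rpl36a in Glioblastoma, 1.06 ± 0.136 times in MIM-Astrocytes, 0.670 ± 0.0238 times in NSC and 1.64 ± 0.0620 times in Astrocytes. The exact two-sided permutation test of the ratio gave 0.1, the smallest p that 3 against 3 allows, in 21 of 24 tests over 4 pairs and 6 comparisons, and an adjusted p of at least 0.1143, so the design cannot pass 0.05.

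Both subunits held called members. The sets were taken by name, so the small-subunit one also holds Rps19bp1 and processed pseudogenes such as Rps12l1. In MIM-Astrocytes against Astrocytes, 46 of 49 tested large-subunit and 32 of 37 small-subunit members were higher, beside 34.8% of all tested genes. Their medians were 0.86 and 1.00. In MIM-Astrocytes against NSC, 38 large-subunit and 29 small-subunit members were lower, beside 24.9% of all tested genes, with medians of -0.72 and -0.82. The summed FPKM of large-subunit over small-subunit members was 1.55 ± 0.0373 in Glioblastoma, 1.64 ± 0.0399 in MIM-Astrocytes, 1.48 ± 0.0247 in NSC and 1.78 ± 0.00604 in Astrocytes (SD, n = 3 each). The 29 members whose gene holds at least 1 small nucleolar RNA gene had a median of 1.01 in MIM-Astrocytes against Astrocytes, beside 0.95 in the 57 tested members without one. For the 14 members with the TOP start at the annotated base the median was 0.92, and for the other 49 tested members with a RefSeq window it was 0.97. None of these splits was tested.

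Genes outside the family whose mRNAs are known as TOP mRNAs had called members in the same directions. Of 19 such genes, 17 were higher in MIM-Astrocytes than in Astrocytes and 0 lower (34.8% and 26.6% of all tested genes), with a median of 0.67. In MIM-Astrocytes against NSC, 16 were lower and 0 higher (24.9% and 31.0% of all tested genes), with a median of -0.67. In Glioblastoma against NSC, 16 were higher and 0 lower (44.8% and 25.1% of all tested genes), with a median of 0.64. Eef1a1, which brings aminoacyl-tRNA to the ribosome, averaged 8667 ± 471 FPKM in Glioblastoma, 2503 ± 367 FPKM in MIM-Astrocytes, 5017 ± 460.4 FPKM in NSC and 1717 ± 83.7 FPKM in Astrocytes (SD, n = 3 each). Rack1, a scaffold on the small subunit that the files list as Gnb2l1, averaged 1662 ± 67.6 FPKM in Glioblastoma, 415 ± 45.4 FPKM in MIM-Astrocytes, 1067 ± 119.6 FPKM in NSC and 228 ± 31.3 FPKM in Astrocytes. Npm1, a nucleolar chaperone, was called at 0.79 ± 0.10 in MIM-Astrocytes against Astrocytes and at -0.70 ± 0.10 in MIM-Astrocytes against NSC. Fau, whose product releases a ribosomal protein from a fusion with a ubiquitin-like protein, differed by 0.51 in MIM-Astrocytes against Astrocytes and was called. Eef2, the translocation factor, differed there by 0.15 ± 0.10 and was not called, and by -0.98 ± 0.10 in MIM-Astrocytes against NSC, where it was. Of 7 elongation factor genes, 5 were higher and 1, Eef1a2 (-0.88), was lower in MIM-Astrocytes than in Astrocytes, beside the same 34.8% and 26.6%. This list overlaps the 19, as both hold Eef1a1 and Eef2.

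Mitochondrial ribosomal protein genes, which serve the separate ribosome of that organelle, gave other counts. Of 76 tested, 28 were higher and 4 lower in MIM-Astrocytes than in Astrocytes, with a median of 0.16. The higher count lies near the share over all tested genes, 34.8%, and the lower count below the 26.6% of all tested genes. In NSC against Astrocytes, 8 were higher and 36 lower (37.7% and 33.4% of all tested genes), with a median of -0.25, where the cytosolic median was 1.73. In MIM-Astrocytes against NSC, 49 were higher and 1 lower (31.0% and 24.9% of all tested genes), with a median of 0.42, where the cytosolic median was -0.77. Mrpl12 was 1.29 ± 0.09 and Mrpl51 1.42 ± 0.10 higher in MIM-Astrocytes than in NSC. In Glioblastoma against NSC, 65 were higher and 6 lower (44.8% and 25.1% of all tested genes), with a median of 0.73. Their summed share of protein-coding FPKM was 0.783% ± 0.0131 in Glioblastoma, 0.720% ± 0.0210 in MIM-Astrocytes, 0.569% ± 0.0111 in NSC and 0.654% ± 0.0270 in Astrocytes (SD, n = 3 each).

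Of 45 tested initiation factor genes, 22 were higher in MIM-Astrocytes than in Astrocytes and 5 were lower, where 34.8% of all tested genes were higher and 26.6% lower, with a median of 0.29. In MIM-Astrocytes against NSC 12 were higher and 14 lower, near the 31.0% and 24.9% of all tested genes. Eif4b, a cofactor of the helicase eIF4A, was among the lower ones there at -1.06 ± 0.08. Of 75 ribosome assembly genes, 34 were higher in MIM-Astrocytes than in Astrocytes and 6 were lower, beside the same 34.8% and 26.6% of all tested genes, with a median of 0.21. In Glioblastoma against NSC 65 were higher and 2 lower, where 44.8% of all tested genes were higher and 25.1% lower, with a median of 0.87, where the members' median was 0.56. Polr1a, the largest subunit of RNA polymerase I, was called lower in MIM-Astrocytes than in Astrocytes, at -1.14 ± 0.05.

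Among 15 tested regulators of mTOR and Myc, 6 were higher in MIM-Astrocytes than in Astrocytes and 2 were lower, and 9 were higher and 5 lower in Glioblastoma than in NSC. Over all tested genes, 34.8% were higher and 26.6% lower in the MIM comparison, and 44.8% higher and 25.1% lower in the Glioblastoma one. Myc, a transcription factor that raises ribosomal protein gene expression, averaged 23.3 ± 1.43 FPKM in Glioblastoma, 4.09 ± 0.305 FPKM in MIM-Astrocytes, 7.13 ± 1.04 FPKM in NSC and 3.45 ± 0.0328 FPKM in Astrocytes. It differed by 0.19 ± 0.09 in MIM-Astrocytes against Astrocytes, which was not called, and by 1.59 ± 0.09 in Glioblastoma against NSC, which was. Eif4ebp1, a repressor of cap-dependent translation that mTOR inactivates, averaged 126 ± 8.77 FPKM in Glioblastoma, 18.6 ± 3.12 FPKM in MIM-Astrocytes, 9.38 ± 0.717 FPKM in NSC and 7.08 ± 0.873 FPKM in Astrocytes. Larp1, the TOP mRNA binder, was called in Glioblastoma against NSC, at 1.25 ± 0.07, and not in MIM-Astrocytes against Astrocytes, at -0.02 ± 0.07.

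Ribosomal protein transcripts are short, with a median of 910 bases, and other short genes had medians of their own. The 123 tested protein-coding genes of up to 600 bases that are not members had a median of 0.35 in MIM-Astrocytes against Astrocytes, 0.28 in NSC against Astrocytes and 0.63 in Glioblastoma against Astrocytes. The 423 between 600 and 1000 bases had medians of 0.06, -0.22 and 0.23. In MIM-Astrocytes against NSC the same bins were at 0.06 and 0.26, where the members' median was -0.77. In Glioblastoma against NSC they were at 0.04 and 0.45, and genes of 1000 to 1500 bases at 0.40, beside 0.56 for the members and 0.19 for all tested genes.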

How the data were processed

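RNA of 12 libraries was deposited as 1 table of FPKM per library, with an interval for each value. Per the submitters' processing notes, the authors made these FPKM values with Cufflinks on GRCm38. The aligner, strand setting, read counts and treatment of reads that fit several loci are not given in the sources used here, so depth is unknown.

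The members and lists were chosen with earlier results of these data known. Genes with at least 1 FPKM in at least 3 libraries, 16982 of 53932, were tested as log2(FPKM + 1) with limma 3.58.1 in R 4.3.3. The fit had 1 mean per group over all 12 libraries and a trended prior, and p-values were adjusted by the Benjamini-Hochberg method over all tested genes per comparison. The script was tested on simulated data. Some genes of these lists enter the counts and are not reported here by name. Named members were, in each comparison, the 4 with the largest differences each way, the 3 with the largest and the 3 with the smallest ratio of highest to lowest group mean, and a list that held Rplp0, Rps18, Rpl22 and the main paralogs. From the related lists they were the 3 with the smallest p per comparison and a list that held Eef1a1, Rack1 and Myc. Rps3a1 and Rps27rt were chosen after their values were seen. Paralog ratios were compared with exact permutation tests (SciPy 1.17.1). Start windows came from RefSeq promoters of GRCm38.p6, and transcript windows, lengths and small nucleolar RNA genes from GENCODE M21. Transcript windows were those of the longest protein-coding transcript of a gene, or of its longest transcript where none is coding. The shared percentage depends on that transcript. Alternatives covered the pseudocount, the filter, 5 other scalings, the libraries in the fit, limma's library weights, each library left out, the replicate block and added pseudogene rows. The added rows were those named after a member with -ps, without copies under other symbols.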

Additional observations from a re-analysis of the deposited data

How the results depend on the processing

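Relative to Astrocytes, 73 to 79 members were higher in MIM-Astrocytes, 81 to 82 in NSC and 84 to 85 in Glioblastoma, and 0 were lower, with each library left out in turn. Of all 16982 tested genes, 5360 to 5966, 5945 to 6465 and 7610 to 8018 were then higher, in that order. The lower ones were 4183 to 4528, 5306 to 5730 and 5058 to 5345. Against NSC, MIM-Astrocytes had 60 to 68 lower and 3 higher, and Glioblastoma 49 to 60 higher and 0 to 3 lower. Over all tested genes, MIM-Astrocytes had 3723 to 4333 lower and 4697 to 5386 higher, and Glioblastoma 7028 to 7686 higher and 4024 to 4352 lower. Glioblastoma had 79 to 80 higher and 0 lower against MIM-Astrocytes, where 6626 to 7113 of all tested genes were higher and 4486 to 4871 lower. The lower count of Glioblastoma against NSC, 2, was 7 with median-of-ratios scaling, 4 with a common total, 8 with a common total of other protein-coding genes, 9 with a total without mitochondrial genes and small RNAs, 8 with quantile normalization, 1 in the 6 libraries of the comparison and 1 with no filter, and the cause was not tested. With no filter, which tests more genes, 1 was lower in NSC and 2 in Glioblastoma against Astrocytes, and 1 in Glioblastoma against MIM-Astrocytes. Of all 37662 genes tested then, 7762, 8062 and 6340 were lower in these 3 comparisons. A common total gave 1 lower in NSC against Astrocytes and 1 in Glioblastoma against MIM-Astrocytes, where the total without mitochondrial genes and small RNAs gave 1 and quantile normalization 2. Over all 16982 tested genes, 7852 were lower in the first comparison, and 6043, 6131 and 5682 in the second under these scalings in turn. Core genes alone left 1 higher in MIM-Astrocytes against NSC. With pseudogene rows added, mean summed FPKM was 73387 in Glioblastoma, 30721 in MIM-Astrocytes, 49773 in NSC and 15348 in Astrocytes.

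Of 137 pairs of a named gene and a comparison, 17 lost and 14 gained a call with the sign kept under some alternative. Calls lost or gained along with a change of sign were not counted there. The sign changed under some alternative for 8 pairs. Those were Rpl7l1 in MIM-Astrocytes against NSC (-0.18, total of other protein-coding genes) and in NSC against Astrocytes (-0.10, common total), Rps19bp1 in NSC against Astrocytes (-0.25, common total), and, with quantile normalization, Rplp1 in Glioblastoma against MIM-Astrocytes (-0.32) and Rps14 in Glioblastoma against Astrocytes (-0.028). With pseudogene rows added, Rps2 in MIM-Astrocytes against NSC was -0.25 and Rps23 in MIM-Astrocytes against Astrocytes 0.91. Rps27 in Glioblastoma against NSC was -0.23 with median-of-ratios scaling, -0.27 with the total of other protein-coding genes, and -0.30 both without mitochondrial genes and small RNAs and with quantile normalization. The cause was not tested for any of them.

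Same-numbered libraries deviated together only weakly, if at all (r -0.06 to 0.10 in 18 pairs, against -0.12 to 0.07 in 36 pairs of different number). Such correlations cannot show how libraries were made, so whether the numbers pair them is not known. With the replicate block, Glioblastoma against NSC had 39 higher and 0 lower in its 6 libraries, and 57 and 2 in all 12. Of all 16982 tested genes, 7036 were higher and 3965 lower in the 6, and 7608 and 4302 in the 12. Depth cannot be had from FPKM, so counting error is not known.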
